A study of Ipomoea batatas with 12 samples.

Results

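The expansin-like B (EXLB) genes of sweetpotato (Ipomoea batatas) were followed in roots by RNA-seq. The members were the genes that the study named IbEXLB1 to IbEXLB11, matched by their gene IDs to the deposited table. The table held 10 of these 11 genes among 45142, and IbEXLB5 was not analysed here. Of the 11 EXLB genes named, the 10 measured ones stood beside 22 alpha-expansin (EXPA), 5 beta-expansin (EXPB) and 2 expansin-like A (EXLA) genes of the same study.

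The roots came from greenhouse plants of 2 genotypes, and each library was made from total RNA. MBP3-OE plants, labelled as overexpressing MBP3, were sampled at 20 days, 1 month and 4 months, with 3 libraries per age that the labels number 2, 3 and 8. The wild type (WT), the cultivar Taizhong 6, gave 1 library each of fibrous roots (FR, 20 days), developing tuberous roots (DR, labelled 1 month, but 60 days after planting in the series text) and mature tuberous roots (MR, labelled 4 months, or 120 days after planting). Several plants went into each WT library. For MBP3-OE no source used here says whether plants were pooled, names the promoter of its transgene, or tells if its numbers are lines or plants. The p-values below therefore measure only the spread between these samples, which may be technical, and the spread of a single WT library was borrowed from MBP3-OE.

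Expansins are secreted cell wall proteins of land plants that loosen the wall without cutting its polymers, so that cells can enlarge under turgor. EXPA and EXPB proteins have been shown to act in this way in wall extension assays. EXLA and EXLB proteins share the fold of the family, but such an activity has not been established for them. In a root that turns into a storage organ, expansins are known for their ties to cell enlargement in the growing tip, in emerging laterals and in the thickening body.

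Library totals ran from 39424503 to 58486728 counts. The annotated MBP3 pair, g4107 and g4109, which may share reads, were compared with the genotype labels. The level of g4107 was 67.3 to 78.4 FPKM in 20-day MBP3-OE roots against 15.3 FPKM in FR (log2 fold change 2.16, SE 0.53). In 1-month MBP3-OE roots it was 29.7 to 58.3 FPKM against 23.2 FPKM in DR (log2 fold change 0.99, SE 0.49). All 3 libraries were above WT at both ages, as they were for 42.9% of all genes tested at 20 days and 30% at 1 month. Neither difference was called by edgeR under the thresholds given below, nor was any other gene at these ages. At 4 months the level of g4107 was 55.8 to 121 FPKM in MBP3-OE roots against 83.2 FPKM in MR (log2 fold change 0.05, SE 0.46). This gene thus matched the genotype labels at 20 days and 1 month in direction only, without a call. It did not bear out the 4-month label, which rests on the labels alone. FPKM scales fragments by exon length and by mapped reads, so levels in FPKM may be compared between genes as far as the annotated exons are right. Sporamin, the storage protein that marks tuberous roots, took 0.067% to 0.160% of counts in 20-day, 0.418% to 1.70% in 1-month and 8.68% to 17.8% in 4-month MBP3-OE roots, and 0.026%, 0.289% and 11.9% in FR, DR and MR (42 genes). Genes described as chlorophyll a-b binding proteins (19 genes), which mark green tissue, summed to 67.5 to 157 FPKM in 20-day, 209 to 901 FPKM in 1-month and 3651 to 7456 FPKM in 4-month MBP3-OE roots, and to 58.7, 149 and 448 FPKM in FR, DR and MR, so that they were higher in MBP3-OE than in WT libraries at every age. Genes of the Casparian strip (5 genes), a barrier of the root endodermis, summed to 3.53 to 3.64 FPKM in 20-day, 1.35 to 1.99 FPKM in 1-month and 1.24 to 1.57 FPKM in 4-month MBP3-OE roots, and to 2.97, 1.299 and 1.51 FPKM in FR, DR and MR. Laccase genes (42 genes), which polymerise lignin, summed to 113 to 184, 93.8 to 230 and 27.5 to 59.7 FPKM at the 3 MBP3-OE ages and to 119, 131 and 38.9 FPKM in FR, DR and MR. No gene of these 4 lists was at 0 in all libraries, and the part that a changing mix of tissues had in any result on EXLB genes was not tested. In these bulk libraries fewer cells of a type and less RNA per cell cannot be told apart.

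The EXLB genes lay on 3 linkage groups (LG) of the deposited annotation. LG4 held IbEXLB1 (g14386, 11680999 to 11685129), IbEXLB2 (g14427, 12108096 to 12115211), IbEXLB3 (g14812, 15205787 to 15212870) and IbEXLB4 (g15079, 17318203 to 17322360). LG8 held IbEXLB6 (g33144, 20259484 to 20263708) and IbEXLB7 (g33212, 20735958 to 20740574). LG14 held IbEXLB8 (g55672, 2127968 to 2130111), IbEXLB9 (g55673, 2134916 to 2136691), IbEXLB10 (g55674, 2139936 to 2141679) and IbEXLB11 (g55709, 2414381 to 2417002). IbEXLB8, IbEXLB9 and IbEXLB10 were direct neighbours, with 4804 and 3244 bp between them and no other gene of the table, whereas 29 genes lay between IbEXLB10 and IbEXLB11. The deposited description of 9 members was expansin-like B1, and IbEXLB3 was described as a hypothetical protein. Likewise 9 members carried the gene ontology term for cell wall loosening, and IbEXLB11 did not. No genome of the files' build was given, and the coordinates are those of the deposited table, with no build named.

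The EXLB proteins listed by the study fell into close and distant relatives when they were aligned globally in pairs. IbEXLB1 and IbEXLB2 shared 95.1% of aligned residues, IbEXLB6 and IbEXLB7 94.0%, and IbEXLB9 and IbEXLB10 85.2%. The 4 pairs that join LG4 and LG8 (IbEXLB1 or IbEXLB2 with IbEXLB6 or IbEXLB7) shared 80.2% to 84.8%. The remaining 21 pairs among the 8 genes tested below shared 37.6% to 65.9%, and IbEXLB11 was 37.6% to 44.7% identical to every other member. Values of such close pairs are uncertain, since no source says how reads that fit both genes were counted. The study lists 252 residues for IbEXLB1 and 443 for IbEXLB2, so levels of this pair also depend on the gene models.

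For IbEXLB11, whose closest relative shared 44.7% of residues and which had the largest fitted age change below, the primers of the study's own qRT-PCR assay are shown. They mark the ends of the stretch of transcript that this assay reads. Both are written 5′ to 3′ in lower case. 
IbEXLB11 forward: tactgcggtgctactgtgtgag
IbEXLB11 reverse: aggtccctggaatgttgtttg
The residues encoded by the forward primer (7) and by the reverse complement of the reverse primer (6) occurred in 1 of the 11 EXLB proteins, IbEXLB11 itself. Transcript sequences were not compared, so whether the primers read this gene alone was not tested. The qRT-PCR values were not used here.

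The summed level of the family was highest in the youngest roots. The FPKM of its 10 genes summed to 93.2, 50.0 and 70.2 in the 20-day MBP3-OE libraries 2, 3 and 8, to 7.69, 21.5 and 28.8 at 1 month and to 2.83, 2.62 and 2.06 at 4 months. In WT the sum reached 102 FPKM in FR, and DR and MR had 39.1 and 6.00 FPKM. The 3 MBP3-OE ages did not overlap, and FR stood above every MBP3-OE library. Of the FPKM of all measured expansins, EXLB genes made up 14.4% to 26.0% in 20-day, 4.62% to 10.6% in 1-month and 2.69% to 5.70% in 4-month MBP3-OE roots, and 18.6%, 15.1% and 6.06% in FR, DR and MR.

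**Figure D1:**
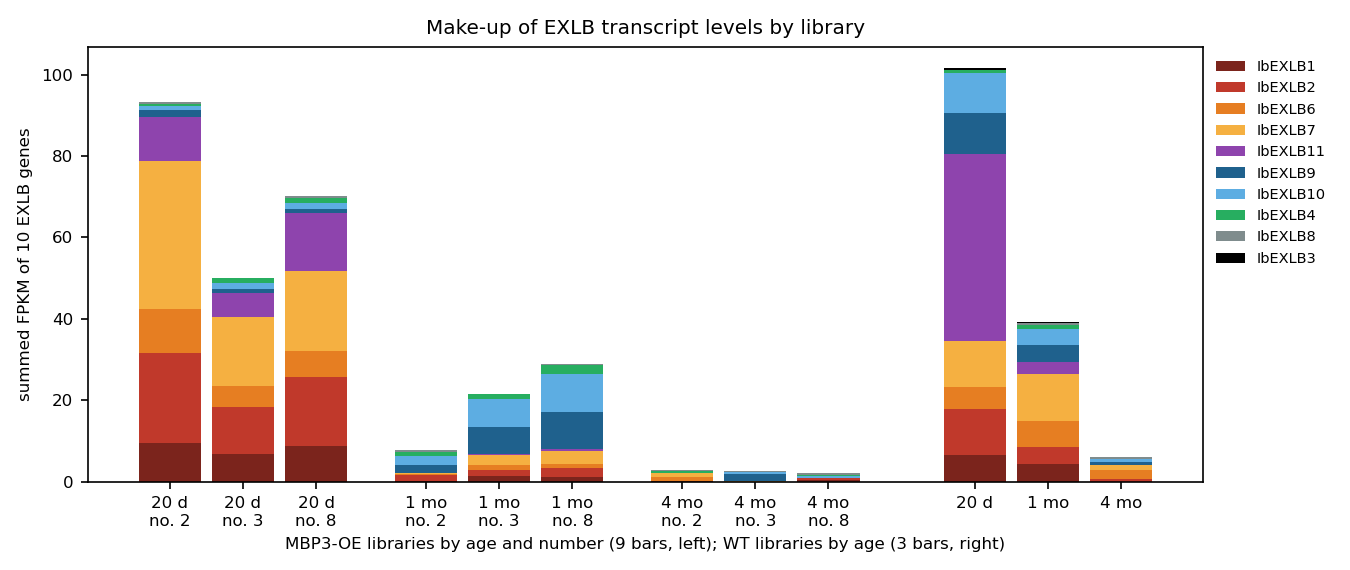
Summed FPKM (linear axis) of the 10 EXLB genes in each library, stacked by gene, with the 9 MBP3-OE libraries at the left, by age and number, and the 3 WT libraries at the right. The 20-day bars of MBP3-OE reach 50.0 to 93.2 FPKM and are mostly IbEXLB1, IbEXLB2, IbEXLB6 and IbEXLB7, the 1-month bars are mostly IbEXLB9 and IbEXLB10, and IbEXLB11 fills 45.3% of the FR bar.

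The make-up of that sum differed as well. IbEXLB1, IbEXLB2, IbEXLB6 and IbEXLB7 together held 73.7% to 84.6% of it in 20-day and 26.4% to 30.1% in 1-month MBP3-OE roots, whereas IbEXLB9 and IbEXLB10 held 3.06% to 5.04% at 20 days and 52.7% to 64.1% at 1 month. In WT the first 4 genes held 33.9% in FR and 67.5% in DR, and IbEXLB9 with IbEXLB10 held 19.5% and 21.0%. IbEXLB11 held 45.3% of the sum in FR and 11.5% to 20.5% in 20-day MBP3-OE roots. At 4 months the sum was too small for its shares to be compared.

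Ranked by level in MBP3-OE, the members formed a higher and a lower tier at 20 days, with no such gap at 1 month. In 20-day MBP3-OE roots IbEXLB7 averaged 24.3 ± 10.5 FPKM, IbEXLB2 16.8 ± 5.37, IbEXLB11 10.3 ± 4.29, IbEXLB1 8.40 ± 1.34 and IbEXLB6 7.48 ± 2.95 FPKM (SD, n = 3 each). Each of these overlapped its neighbour in the order, and then came a gap. IbEXLB10 averaged 1.36 ± 0.19 FPKM, IbEXLB9 1.19 ± 0.446 and IbEXLB4 1.01 ± 0.492 FPKM, again overlapping with each other, and IbEXLB8 averaged 0.278 ± 0.155 FPKM. In FR the order was another, with IbEXLB9 (10.02 FPKM) and IbEXLB10 (9.78 FPKM) next to IbEXLB2 (11.3 FPKM) and IbEXLB7 (11.1 FPKM) and above IbEXLB1 and IbEXLB6. At 1 month in MBP3-OE, IbEXLB10 (6.07 ± 3.62 FPKM) and IbEXLB9 (5.93 ± 3.69 FPKM) led instead, and IbEXLB11 was among the lowest, at 0.243 ± 0.236 FPKM, but every member measured above 0 at that age overlapped its neighbour in the order.

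**Figure D2:**
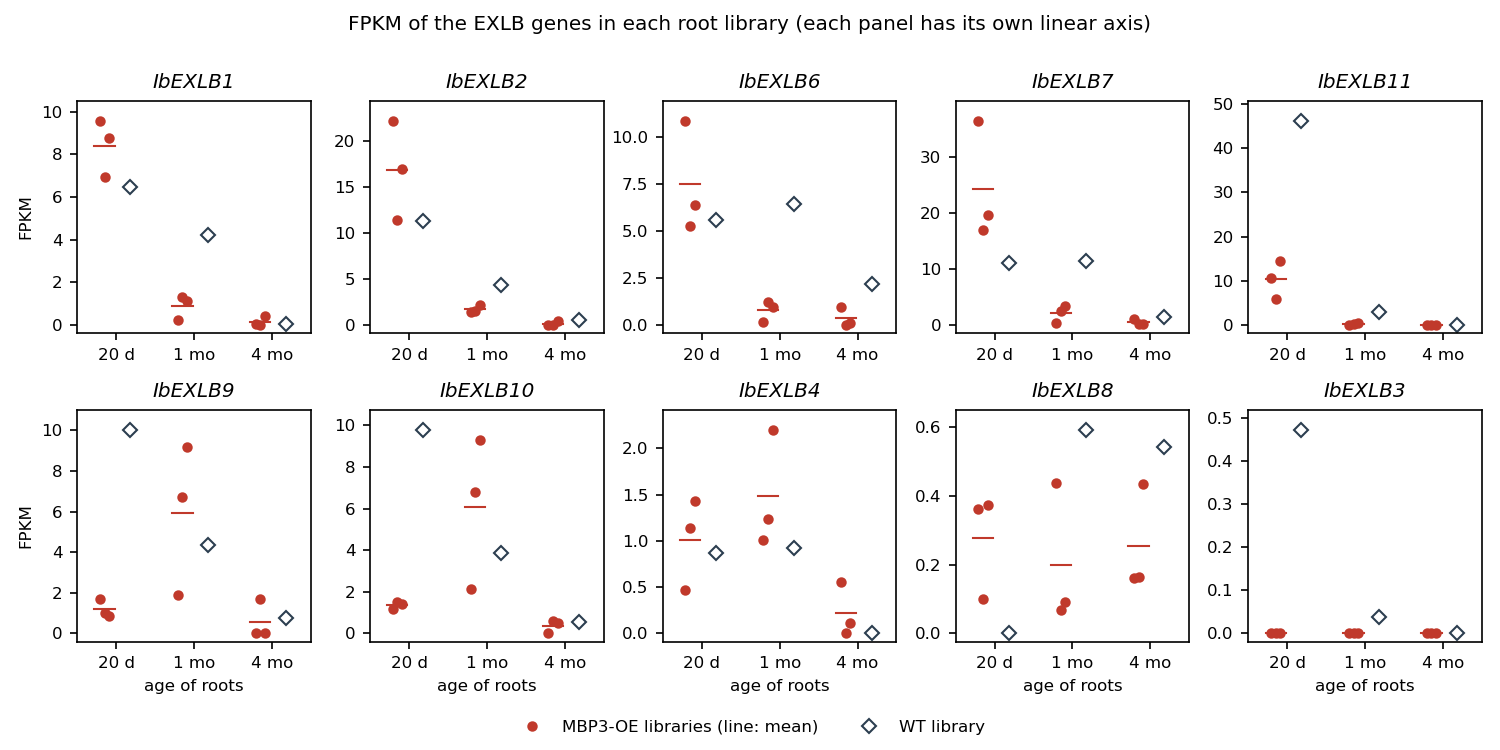
FPKM of each EXLB gene (1 panel per gene, each with its own linear axis) against root age, with filled circles for MBP3-OE libraries, a line for their mean, and open diamonds for the single WT library of that age. IbEXLB1, IbEXLB2, IbEXLB6, IbEXLB7 and IbEXLB11 are highest at 20 days in MBP3-OE, IbEXLB9 and IbEXLB10 at 1 month, and IbEXLB3 is at 0 in all 9 MBP3-OE libraries.

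The question of the age comparisons is which genes differ between roots of different age. Fibrous and tuberous stages are given for the WT libraries only, and the MBP3-OE labels give root and age. Changes were tested by edgeR's quasi-likelihood test on counts over 28065 genes, with Benjamini-Hochberg adjustment over all of them. Calls needed both an adjusted p under 0.05 and a log2 fold change of 1 or more in either direction. The SE given with each edgeR log2 fold change, here and above, was derived from the test. It is the size of the change divided by the square root of the test's F statistic. Genes averaging under 0.5 FPKM across the 12 libraries were left out, and 8 of the 10 members passed. IbEXLB3 and IbEXLB8 did not and are given by their values only.

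The first group held the 4 close relatives of LG4 and LG8, all described as expansin-like B1. IbEXLB1 had 9.54, 6.92 and 8.75 FPKM in the 20-day, 0.230, 1.31 and 1.11 FPKM in the 1-month and 0.057, 0 and 0.403 FPKM in the 4-month MBP3-OE libraries 2, 3 and 8. The 20-day libraries thus lay above all others of that genotype, and the 1-month and 4-month libraries overlapped. The FR, DR and MR values were 6.49, 4.23 and 0.037 FPKM. The MR value rested on 3 counts against 384 in FR, a level 145-fold lower as a share of all counts (95% exact interval 49.2 to 705, counting error only).

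IbEXLB2 had 22.1, 11.4 and 17.0 FPKM at 20 days, 1.45, 1.47 and 2.21 FPKM at 1 month and 0, 0 and 0.442 FPKM at 4 months in MBP3-OE. The 3 ages did not overlap, and the 4-month value came from library 8 alone. FR had 11.3 FPKM, DR 4.31 FPKM and MR 0.526 FPKM, the same order of ages.

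IbEXLB6 had 10.8, 5.24 and 6.38 FPKM at 20 days, 0.178, 1.23 and 0.965 FPKM at 1 month and 0.974, 0 and 0.093 FPKM at 4 months in MBP3-OE. Here the 1-month and 4-month libraries overlapped and both lay under the 20-day ones. The WT levels were 5.55 FPKM (FR), 6.40 FPKM (DR) and 2.20 FPKM (MR), so that DR stood at the level of the 20-day roots and MR above all 6 older MBP3-OE libraries.

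IbEXLB7, the most abundant member on average over the 12 libraries, had 36.4, 16.9 and 19.6 FPKM at 20 days, 0.337, 2.47 and 3.30 FPKM at 1 month and 1.09, 0.105 and 0.073 FPKM at 4 months in MBP3-OE. The 20-day libraries were again apart from the rest. FR and DR were nearly alike, at 11.1 and 11.5 FPKM, and MR had 1.39 FPKM. Its ratio to IbEXLB6 was 3.07 to 3.36 in 20-day MBP3-OE roots against 2.01 in FR, and 1.89 to 3.42 at 1 month against 1.79 in DR. At 4 months, where both genes were low, it was 1.12 and 0.79 in MBP3-OE libraries 2 and 8 and 0.63 in MR.

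All 4 of these genes fell between 20 days and 4 months in MBP3-OE. The log2 fold change of 4 months against 20 days was -5.46 (SE 1.14, edgeR adjusted p = 0.00502) for IbEXLB1, -6.53 (SE 1.29, adjusted p = 0.00386) for IbEXLB2, -3.99 (SE 1.28, adjusted p = 0.0309) for IbEXLB6 and -5.47 (SE 1.16, adjusted p = 0.00531) for IbEXLB7. The call of IbEXLB6 was lost without any 1 of the 20-day libraries or without 4-month library 8 (adjusted p up to 0.0859 with 1 library left out), and the other 3 calls held with each library left out. With IbEXLB11, below, 5 of the 8 members tested were called, all lower, against 35.2% of all 28065 genes called in this comparison (17.8% lower). DESeq2 called 5 members too (38% of all genes), as did limma-trend on log2(FPKM + 1) (30%).

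Between 20 days and 1 month the same 4 genes showed log2 fold changes of -3.34 (IbEXLB1), -3.37 (IbEXLB2), -3.32 (IbEXLB6) and -3.66 (IbEXLB7), with SEs of 1.00 to 1.22. None of them was called, with edgeR adjusted p-values of 0.0606, 0.074, 0.108 and 0.0531. The fit pooled the spread over the ages, at which the common coefficient of variation took values of 0.234 (20 days), 0.405 (1 month) and 0.50 (4 months). Its part in these p-values was not tested. In a fit of the 20-day and 1-month libraries alone, chosen after seeing the data, all 4 were called (adjusted p = 0.0025 to 0.0161).

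IbEXLB11 showed the widest range of the family. It had 10.7, 5.83 and 14.4 FPKM at 20 days, 0, 0.259 and 0.470 FPKM at 1 month and 0, 0.063 and 0 FPKM at 4 months in MBP3-OE. The 20-day libraries lay far above all 6 older ones, and 3 of those 6 held no count. In WT it had 46.1 FPKM in FR, from 3084 counts, 2.93 FPKM in DR, from 257 counts, and 0 in MR. Its FR level was the highest of any EXLB gene in any library and stood at the 94.3 percentile of the genes above 0 in FR.

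IbEXLB11 was the 1 member of 8 called at 1 month against 20 days, with a log2 fold change of -5.47 (SE 1.07, edgeR adjusted p = 0.0159), where 9.2% of all genes were called (3.49% lower). The call was lost without 20-day library 2 or 8 (adjusted p up to 0.0624 with 1 library left out). At 4 months against 20 days its log2 fold change was -8.28 (SE 1.33, adjusted p = 0.00146), which held with each library left out. In WT it was likewise the 1 member of 8 called at MR against FR, where 20.6% of all genes were called (9.15% lower). Its level in MR was at least 1163-fold lower than in FR as a share of all counts, with the floor set at 3 counts in the MR library, and the edgeR adjusted p of that comparison was 0.0147 (0.00466 to 0.0307 with 1 MBP3-OE library left out).

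IbEXLB9 and IbEXLB10, the neighbours on LG14, behaved otherwise. IbEXLB9 had 1.70, 0.997 and 0.876 FPKM at 20 days, 1.91, 6.71 and 9.16 FPKM at 1 month and 0, 1.68 and 0 FPKM at 4 months in MBP3-OE, against 10.02, 4.34 and 0.781 FPKM in FR, DR and MR. The 1-month libraries lay above those of the other ages, by a narrow margin for library 2. IbEXLB10 had 1.15, 1.52 and 1.42 FPKM at 20 days, 2.14, 6.77 and 9.28 FPKM at 1 month and 0, 0.606 and 0.501 FPKM at 4 months in MBP3-OE, against 9.78, 3.88 and 0.527 FPKM in FR, DR and MR. The 3 MBP3-OE ages did not overlap for IbEXLB10, and both genes were highest in FR in WT.

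At 1 month against 20 days the log2 fold change was 2.22 (SE 1.36, edgeR adjusted p = 0.309) for IbEXLB9 and 2.04 (SE 0.90, adjusted p = 0.165) for IbEXLB10. Neither was called, and in the fit of the 20-day and 1-month libraries alone both were (adjusted p = 0.0321 and 0.0297). That fit called 7 of the 8 members, 5 lower and 2 higher, where it called 14% of all genes. DESeq2 on all 12 libraries called 4 members at 1 month against 20 days (14.1% of all genes), all lower, and limma-trend 6 (10.2%), 5 lower and IbEXLB10 higher. At 4 months against 1 month IbEXLB10 fell, with a log2 fold change of -3.66 (SE 0.98, edgeR adjusted p = 0.0293), the 1 member of 8 called where 17% of all genes were called (9.56% lower). This call was lost without 1-month library 3 or 8, 20-day library 3 or 8, or 4-month library 8 (adjusted p up to 0.0822). DESeq2 called 1 member there (22% of all genes) and limma-trend 4 (17.2%). IbEXLB9 had a log2 fold change of -3.12 (SE 1.42, adjusted p = 0.138) in the same comparison.

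The ranges of the 3 libraries a side can be read without a model, but FPKM lack the TMM scaling used by edgeR. TMM factors were 1.02 to 1.08 in 20-day and 0.82 to 0.98 in 4-month MBP3-OE libraries. At 4 months against 20 days limma-trend on FPKM called 2699 genes higher and 5730 lower, where edgeR called 4900 and 4983. FPKM readings thus lean lower at 4 months, and the part of scaling in this was not tested. At 1 month against 20 days the ranges did not overlap for 7 of the 8 members tested (5 lower, 2 higher), against 44% of all genes tested (18.5% lower, 25.5% higher). At 4 months against 20 days they did not overlap for 6 members, all lower, against 61% of all genes (39.1% lower, 22% higher), and at 4 months against 1 month for 4 members, all lower, against 42.2% (31.6% lower, 10.7% higher). IbEXLB10 was thus apart at 4 months against 20 days without being called (log2 fold change -1.62, SE 0.93, adjusted p = 0.178).

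**Figure D3:**
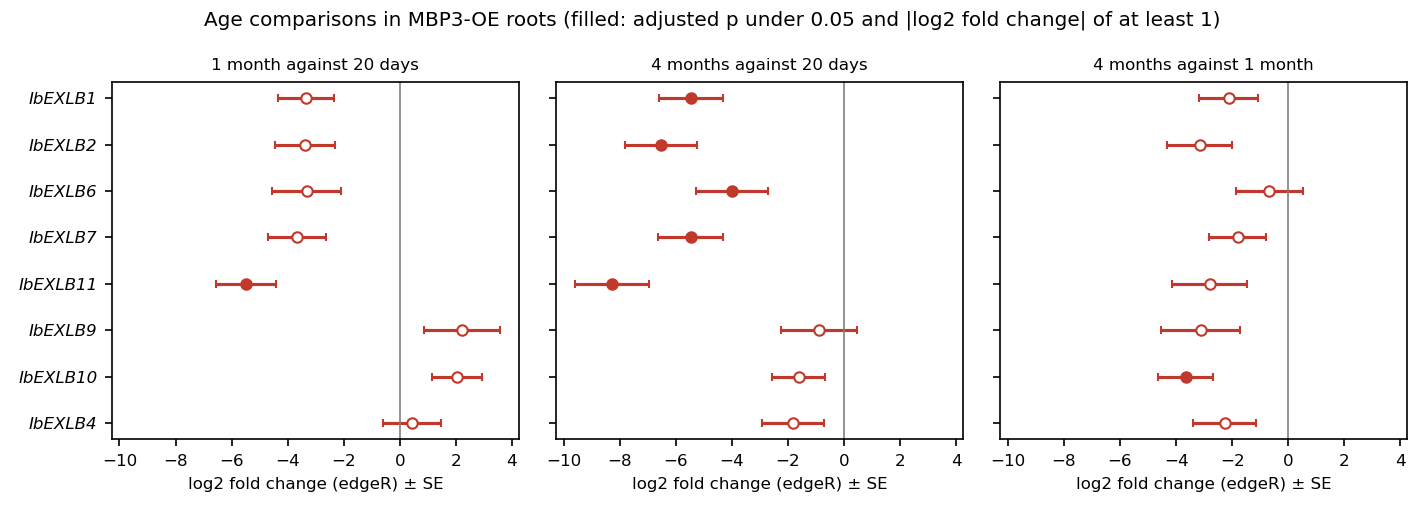
Log2 fold change with a standard error (edgeR, horizontal axis, shared by the panels) of the 8 EXLB genes tested, for the 3 age comparisons in MBP3-OE, later age over earlier. The standard error was derived from the F statistic of the test. Filled points mark calls at an adjusted p under 0.05 and a change of 1 or more in either direction. IbEXLB11 is filled in the first panel, IbEXLB1, IbEXLB2, IbEXLB6, IbEXLB7 and IbEXLB11 in the second and IbEXLB10 in the third.

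Of the lowest members, IbEXLB4 was not called by edgeR over all 12 libraries, and IbEXLB3 and IbEXLB8 were not tested. IbEXLB4 had 0.470, 1.14 and 1.43 FPKM at 20 days, 1.01, 1.24 and 2.20 FPKM at 1 month and 0.553, 0 and 0.113 FPKM at 4 months in MBP3-OE, against 0.873 and 0.927 FPKM in FR and DR and 0 in MR. The 20-day libraries overlapped with those of both later ages, and its log2 fold change of 4 months against 20 days was -1.83 (SE 1.11, edgeR adjusted p = 0.203). In WT its level in MR was at least 20.0-fold lower than in FR (53 counts) and at least 21.3-fold lower than in DR (74 counts) by the same floor, and the comparison of MR and FR was not called by edgeR (adjusted p = 0.0932). IbEXLB4 was called in MR against FR by DESeq2 and without 4-month library 2 or 3, at 4 months against 1 month by limma-trend and without 4-month library 2, and at 4 months against 20 days without that library.

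IbEXLB8 stayed between 0.068 and 0.438 FPKM in all 9 MBP3-OE libraries. The WT values were 0 in FR and 0.591 and 0.542 FPKM in DR and MR, at least 10.9-fold higher in DR and at least 10.3-fold higher in MR than in FR by the floor of 3 counts. It was the 1 member without a count in FR, where IbEXLB9, its neighbour, was at its highest level. IbEXLB3 had no count in any MBP3-OE library, 32 counts (0.473 FPKM) in FR, 4 counts in DR and none in MR, so that its level in MR was at least 12.1-fold lower than in FR. Both rest on few counts and on single WT libraries, without a test.

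The WT comparisons had 1 library a side. DR against FR called 0 of the 8 members by edgeR, where 0.178% of all genes were called, and 1 member, IbEXLB11 (log2 fold change -4.16, SE 1.70), had an unadjusted p under 0.05, as had 12.7% of all genes. DESeq2 also called none (4.91% of all genes), and limma-trend called IbEXLB11 (2.69%). MR against FR shared the FR library with it. There the log2 fold change was -4.31 (SE 1.97, adjusted p = 0.145) for IbEXLB2, -1.23 (SE 1.96, adjusted p = 0.68) for IbEXLB6, -2.89 (SE 1.76, adjusted p = 0.263) for IbEXLB7, -3.55 (SE 2.49, adjusted p = 0.327) for IbEXLB9 and -4.06 (SE 1.71, adjusted p = 0.118) for IbEXLB10. IbEXLB1 lay just outside the threshold (adjusted p = 0.052) and was called without 1-month library 2 or without any 1 of the 4-month libraries, which brought the members called to as many as 4. DESeq2 called 4 members (30.6% of all genes) and limma-trend 4 (23.9%).

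No EXLB member was called between MBP3-OE and WT within an age by edgeR over all 12 libraries, where WT had 1 library an age. At 20 days IbEXLB9, IbEXLB10 and IbEXLB11 were lower in all 3 MBP3-OE libraries than in FR, with log2 fold changes of -3.19 (SE 1.67), -2.93 (SE 1.11) and -2.27 (SE 1.11), while IbEXLB1, IbEXLB2 and IbEXLB7 were above the FR level in all 3, IbEXLB2 by as little as 11.4 against 11.3 FPKM. These 6 of the 8 members tested lay near the share over all genes, of which 70.1% had all 3 MBP3-OE libraries on 1 side of FR (42.9% higher, 27.1% lower). At 1 month IbEXLB1, IbEXLB2, IbEXLB6, IbEXLB7 and IbEXLB11 were lower in all 3 MBP3-OE libraries than in DR, with log2 fold changes of -1.33 to -3.58, and IbEXLB4 was higher in all 3, where 56.5% of all genes lay on 1 side of DR (30% higher, 26.5% lower). DR may be older than these roots (60 days after planting in the series text), so genotype and age cannot be told apart there. At 4 months IbEXLB2, IbEXLB6 and IbEXLB7 were lower in all 3 than in MR, where 50.5% of all genes lay on 1 side (21.6% higher, 28.9% lower). Within each age, comparisons added after seeing the data, edgeR called 0 of the 8 members at 20 days (where 0% of all genes were called), 0 at 1 month (0%) and 0 at 4 months (0.346%), and 1, 1 and 0 members had an unadjusted p under 0.05, as had 10.1%, 10.3% and 13.1% of all genes. DESeq2 and limma-trend called none of them either, where DESeq2 called 1.8%, 2.16% and 3.87% and limma-trend 0.645%, 0.0677% and 0.588% of all genes at the 3 ages.

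Averaged over ages, edgeR called 0 of the 8 members between MBP3-OE and WT, where 0.164% of all genes were called, and 0 had an unadjusted p under 0.05, as 16.2% of all genes had. DESeq2 called 0 (3.53% of all genes) and limma-trend 1, IbEXLB11 (0.399%). The difference of the age effects between the genotypes, MBP3-OE minus WT, was also called for 0 of 8 members at 1 month and 0 of 8 at 4 months by edgeR (0% of all genes in both, 0 members at an unadjusted p under 0.05, against 6.16% and 11% of all genes), and for none by DESeq2 (0.652% and 2.66% of all genes) or limma-trend (0.0641% and 0.271%). For IbEXLB10 that difference at 1 month was 3.55 on the log2 scale (SE 1.81, adjusted p = 0.868), and for IbEXLB9 3.61 (SE 2.72, adjusted p = 0.947). WT had 1 library per age, and DR may be older than the 1-month MBP3-OE roots. The opposite order of 20-day and 1-month roots in the genotypes is thus a description of these libraries.

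Members close in sequence were alike in expression, and IbEXLB11 was also alike in expression to members distant in sequence. The close pairs come from IbEXLB1, IbEXLB2, IbEXLB6 and IbEXLB7 with each other and from IbEXLB9 with IbEXLB10. Pairs share genes and are not independent. The 12 libraries fall into 6 groups of genotype and age. Over them Pearson's r of log2(FPKM + 1) was 0.879 to 0.975 for the 7 pairs of members with at least 80.2% identity. It was as high as 0.975 for IbEXLB1 and IbEXLB2. For the other 21 pairs r was 0.199 to 0.907. The upper end of that range came from IbEXLB11, which correlated with IbEXLB1 (r = 0.907), IbEXLB2 (0.898), IbEXLB7 (0.847) and IbEXLB6 (0.826) at 37.6% to 41.4% identity, whereas r was 0.322 with IbEXLB9 and 0.364 with IbEXLB10, on the same linkage group, at similar identity. These are descriptions over libraries of which most differ by age, and the part of reads common to close copies was not tested.

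**Figure D4:**
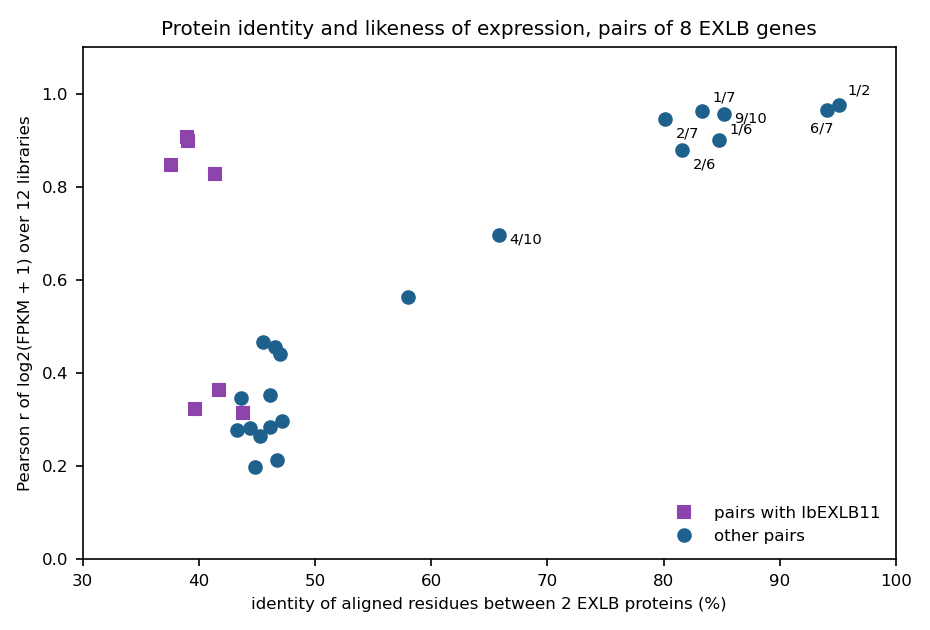
Pearson's r of log2(FPKM + 1) over the 12 libraries (vertical axis) against percent identity of the proteins (horizontal axis) for the 28 pairs of the 8 EXLB genes tested, with squares for pairs that include IbEXLB11 and gene numbers beside pairs of high identity. The 7 pairs with at least 80.2% identity lie at r of 0.879 or more, and 4 pairs with IbEXLB11 lie at 0.826 to 0.907 with 37.6% to 41.4% identity.

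The genes whose pattern was most like that of the 3 most abundant members were picked by the same r over the 12 libraries. Only genes tested that are not named expansins and have an informative description were ranked. For IbEXLB7 they were g29081, described as the ACT domain protein ACR1 (r = 0.977), g42831, a probable protein phosphatase 2C (0.973), and g16204, a STE20-like protein kinase (0.972). For IbEXLB11 they were g4750, an MLO-like membrane protein (0.991), g20272, a CASP-like protein (0.986), and g8721, a probable pectinesterase with its inhibitor domain (0.985), an enzyme class that acts on wall pectin. For IbEXLB2 they were g42432, an ACC oxidase, which makes ethylene (0.986), and the retrotransposon-derived genes g12209 (0.984) and g15506 (0.983). Gene g42432, for example, had 25.2, 13.7 and 24.3 FPKM in 20-day and 0, 0.157 and 0.231 FPKM in 4-month MBP3-OE roots. These r values were picked as the highest among the genes ranked, over libraries of which most differ by age. How many other genes came near them was not counted, and no link to the EXLB genes was tested.

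Other expansins gave a measure for the family. At 4 months against 20 days in MBP3-OE the median log2 fold change was -4.73 over the 8 EXLB genes and 0.02 over all genes tested. It was -0.48 over the 17 EXPA genes tested, of which 3 were called, all lower (17.8% of all genes were), -2.46 over the 2 EXPB genes, of which 1 was called lower, and -3.02 for the 1 EXLA gene, also called lower. At 1 month against 20 days the medians were -3.33 for EXLB, -0.28 for EXPA, 0.99 for EXPB, -0.80 for EXLA and 0.03 for all genes, and at 4 months against 1 month they were -2.54, -0.67, -3.45, -2.22 and -0.01 in the same order. In WT the median of MR against FR was -4.19 for EXLB, -0.49 for EXPA, where 2 genes were called lower and 1 higher, -4.53 for EXPB, where neither gene was called, and -4.32 for the EXLA gene, which was called lower. No test compared the families.

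The most abundant member of each other subfamily put these levels in scale. IbEXPA3, a wall-loosening alpha-expansin by family, had 78.3, 37.9 and 64.7 FPKM in 20-day, 15.2, 21.0 and 31.8 FPKM in 1-month and 0.28, 0.64 and 0.72 FPKM in 4-month MBP3-OE roots, with a log2 fold change of -6.50 at 4 months against 20 days (SE 0.48, edgeR adjusted p = 7.7e-05). IbEXLA2 had 92.3, 162 and 162 FPKM at 20 days and 10.2, 17.2 and 15.4 FPKM at 4 months, with a log2 fold change of -3.02 (SE 0.28, edgeR adjusted p = 0.000156). IbEXPB10 had 1.51, 1.34 and 1.01 FPKM at 20 days and 0.79 to 4.40 FPKM at 4 months, overlapping, with a log2 fold change of 1.01 (SE 0.84, adjusted p = 0.348). The other EXPB gene tested, IbEXPB5, named here after its values were seen, was called lower at 4 months against 20 days (log2 fold change -5.94, SE 1.296, adjusted p = 0.00611) and against 1 month (-5.93, SE 1.296, adjusted p = 0.0151).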

How the data were processed

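Roots of MBP3-OE (9 libraries) and WT (3 libraries) were compared. Per the labels and methods, the authors used cutadapt 1.9 for trimming and HISAT2 2.0.4 for alignment, and the deposited FPKM came from StringTie 1.3.4d. The deposited counts are whole numbers, and how they were made is not given in the sources used here. The FR column held 1 for 132 genes and 4 for 612, so a count may not be 1 read, and floors of 3 counts and intervals are approximate and cover counting error only. Totals ran from 39424503 to 58486728 counts.

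After TMM scaling, 28065 genes averaging 0.5 FPKM or more were fitted by edgeR 4.0.16 in R 4.3.3, with 1 mean for each of the 6 groups of genotype and age and 6 residual degrees of freedom. limma 3.58.1 and DESeq2 1.42.0 were alternatives, with another scaling, other filters, a pseudocount of 0.1 in place of 1 FPKM, a replicate block and each MBP3-OE library left out. Proteins were aligned with Biopython 1.88 (BLOSUM62). Named genes were all members, the MBP3 pair, the most abundant gene of each other subfamily, the 3 best-correlated genes with an informative description for each of the 3 most abundant members, and the genes flanking the LG14 group. Members, lists and tests were chosen with earlier results of these data known. Columns of FPKM and counts were used for all 12 libraries. A table of genes from another assembly was left unused.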

Additional observations from a re-analysis of the deposited data

How the results depend on the processing

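Of the 1309 tests of single members under alternatives, 1224 kept their direction and their side of the threshold, 58 passed it newly and 11 lost it. Another 16, none of them called in either fit, changed sign. The tests cover 88 combinations of member and comparison. Called in the main fit were only 1, 5 and 1 in the 3 MBP3-OE age comparisons and 1 in MR against FR. Most of the 1224 were therefore uncalled results that stayed uncalled, and the 11 losses fell on those few calls. The 5 members called at 4 months against 20 days in MBP3-OE were called under every other tool, scaling and filter (4 to 6 with 1 library left out). All genes called there numbered 4900 higher and 4983 lower. They were 4156 and 4014 without 20-day library 8, and 4996 and 5423 without 4-month library 3. At 1 month against 20 days the count of 1 became 2 with a filter at a mean of 1 FPKM, 4 with DESeq2 and 6 with limma-trend. It was 7 with the 20-day and 1-month libraries alone (chosen after seeing the data). With 1 library left out it was 0 to 6, 0 without 20-day library 2 or 8, and 4 or 6 without a 4-month library. All genes called moved too, from 1601 higher and 980 lower of 28065. They were 1578 and 971 of 24719 with the filter at 1 FPKM. Without 20-day library 2 or 8 they were 595 and 354 or 579 and 316. Without 4-month library 2, 3 or 8 they were 1871 and 1630, 1709 and 1193 or 1526 and 1105. At 4 months against 1 month the count of 1 became 4 with limma-trend and 0 to 3 with 1 library left out. All genes called there numbered 2098 higher and 2684 lower. They were 1340 and 1646 without 1-month library 8, and 2466 and 3390 without 4-month library 3. In WT, MR against FR called 1 member, but 2 with median-ratio scaling or the filter at 1 FPKM, 4 with DESeq2 or limma-trend, and 1 to 4 with 1 library left out, and DR against FR called 1 with limma-trend. MBP3-OE against WT called 1 with limma-trend, and at 4 months 0 to 1 with 1 library left out (IbEXLB2, without library 8). The number of all genes called changed with these settings in the WT and genotype comparisons too. Of the log2 fold changes that changed sign, limma-trend gave 0.041 for IbEXLB4 and 0.039 for IbEXLB7 in DR against FR. It gave 0.46 for IbEXLB11 in the difference of the 1-month age effect between MBP3-OE and WT, and -0.18 for IbEXLB1 in that of the 4-month age effect. With 1 library left out, that 4-month difference ranged from -0.77 to 2.22 for IbEXLB1 and from -5.68 to 3.20 for IbEXLB9. MBP3-OE against WT then ranged from -0.83 to 0.16 for IbEXLB1 averaged over ages, from -0.22 to 0.48 for IbEXLB4 and from -0.019 to 0.51 for IbEXLB6 at 20 days, from -0.029 to 0.83 for IbEXLB9 at 1 month, and, at 4 months, from -0.49 to 2.48 for IbEXLB1, from -8.87 to 0.031 for IbEXLB9 and from -0.96 to 0.079 for IbEXLB10. The cause of these shifts was not tested.

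Deviations of libraries with the same number (2, 3 or 8) correlated at -0.05 to 0.10 over 9 pairs (mean 0.028). Those of libraries with different numbers correlated at -0.11 to 0.11 over 18 pairs (mean -0.014). Not every library correlated best with its own number. Correlations of this size cannot tell whether a number stands for the same line or plant at each age. With the replicate block the members called stayed at 1, 5 and 1 in the 3 age comparisons of MBP3-OE. All genes called at 1 month against 20 days numbered 1224 higher and 786 lower, against 1631 and 1001 in the same 9 libraries without the block. At 4 months against 20 days they numbered 4506 and 5116, against 4762 and 5086. At 4 months against 1 month they numbered 1745 and 2513, against 2030 and 2818. With a pseudocount of 0.1 in place of 1 FPKM, 72 of 72 log2 FPKM ratios (IbEXLB3, at 0 in all MBP3-OE libraries, left out) kept their sign and 45 moved by more than the spread within groups, so ratios of these low genes depend on it.

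Levels under about 1 FPKM rest on few counts, each WT age has 1 library, the counting of reads common to near-identical members is not known, and age, organ stage and tissue make-up cannot be told apart.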

Other observations

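The genes on either side of IbEXLB8, IbEXLB9 and IbEXLB10 on LG14 are given as values, with no test. Gene g55671, described as a histone methyltransferase of the SUVH4 type, ends 23 bp before IbEXLB8 and had 10.9 to 17.1 FPKM in all 12 libraries. Gene g55675, described as light-harvesting complex-like protein 3, begins 3006 bp after IbEXLB10 and had 29.0 to 32.6 FPKM in 20-day, 38.4 to 59.3 FPKM in 1-month and 77.1 to 121 FPKM in 4-month MBP3-OE roots, and 21.3, 46.8 and 39.4 FPKM in FR, DR and MR. Among the 1-month MBP3-OE libraries, library 2 had the lowest level of all 8 members tested and the highest of IbEXLB8 (0.438 FPKM, against 0.068 and 0.091 FPKM), and the EXLB sum there was 7.69 FPKM, against 21.5 and 28.8 FPKM in libraries 3 and 8. Its sporamin share, 1.295%, lay between those of the other two.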
